A study of Mus musculus with 8 samples.

Results

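Cytosolic ribosomal protein genes make the protein part of the 40S and 60S ribosomal subunits, and they are described here in mouse embryonic stem (ES) cells after an esiRNA against Ctr9. A gene belongs to the group if its single annotated symbol starts with Rpl or Rps and a digit, or is Rpsa, Rplp0, Rplp1 or Rplp2. Rps6k kinases and symbols with -ps were left out. The rule found 50 genes of 18193, 26 with Rpl or Rplp symbols (large subunit) and 24 with Rps symbols (small subunit). The symbols take in 6 paralogs (Rpl3l, Rpl7l1, Rpl22l1, Rpl39l, Rps4l and Rps27l) and Rps19bp1, whose product is a binding protein of Rps19 and not a ribosomal protein. That leaves 43 genes without them. Other ribosomal protein genes, among them Rpl3, Rpl5, Rpl10 and Rplp1, were read only by probe sets with several symbols. The 110 such probe sets were not assigned to a gene.

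The 2 groups are 4 arrays of ES cells given Ctr9 esiRNA and 4 arrays of ES cells given luciferase esiRNA, a transfection control aimed at a gene that mouse cells lack. An esiRNA is a mixture of siRNAs cut enzymatically from 1 long double-stranded RNA. All 8 samples carry the strain label Oct4-Gip, were at passage 25, received the esiRNA by lipofection and were taken on day 4. Ctr9 is a scaffold of the Paf1 complex, an elongation factor of RNA polymerase II, so the comparison asks how transcript levels differ when this factor is targeted. Whether the samples are separate cultures is not in the labels, so the p-values speak for the spread among these samples alone, and that spread may be technical. Values are log2 probe set signals from 1-colour Affymetrix arrays, and the number of arrays limits the precision.

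Ribosomal protein mRNAs are among the most abundant transcripts of growing cells. The subunits need most of their proteins in equal numbers, and surplus copies are degraded. In mammals their mRNAs start with a run of pyrimidines, the 5' terminal oligopyrimidine (TOP) motif, through which mTOR signalling and Larp1 set their translation. Their promoters mostly lack a TATA box and carry sites for general activators such as GABP and YY1.

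Promoter windows are shown for the called genes with an entry in the RefSeq table (Rps4l had none) and for 2 bright genes that did not pass the test, so that the bases around their starts can be compared. Each window runs 5' to 3' from 40 bases before the RefSeq start to 20 bases from it (GRCm38.p6), and capitals mark the longest pyrimidine run that touches the 20 bases on either side of the start. The windows are Rpl12 (chr2:32961672-32961731, plus strand), Rps6 (chr4:86857348-86857407, minus strand), Rpl14 (chr9:120571477-120571536, plus strand), Rps19bp1 (chr15:80264287-80264346, minus strand), Rpl22l1 (chr3:28805468-28805527, plus strand), Rplp2 (chr7:141447611-141447670, plus strand) and Rpl7a (chr2:26910767-26910826, plus strand).
Rpl12: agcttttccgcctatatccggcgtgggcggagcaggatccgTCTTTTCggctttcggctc
Rps6: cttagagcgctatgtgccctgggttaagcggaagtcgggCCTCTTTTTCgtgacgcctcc
Rpl14: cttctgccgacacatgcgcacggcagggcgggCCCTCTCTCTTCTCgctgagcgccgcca
Rps19bp1: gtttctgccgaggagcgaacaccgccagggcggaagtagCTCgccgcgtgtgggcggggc
Rpl22l1: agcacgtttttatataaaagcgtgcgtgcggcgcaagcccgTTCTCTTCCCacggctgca
Rplp2: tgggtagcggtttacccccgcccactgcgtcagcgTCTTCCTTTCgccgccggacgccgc
Rpl7a: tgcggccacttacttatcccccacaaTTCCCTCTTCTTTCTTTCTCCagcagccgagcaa

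A pyrimidine run of 8 or more bases within 20 bases on either side of the start was present in 20 of the 44 genes with a promoter entry (45.5%), against 18.4% of the 27025 genes in the RefSeq table. The longest run had a median of 7 bases in ribosomal protein genes and 5 bases in all genes. The GABP-like motif CCGGAAG, searched on both strands from 250 bases before the start to 50 after it, was in 21 of the 44 genes (47.7%), against 9.93% of all genes. The YY1-like motif AAGATGG was in 8 genes (18.2%), against 7.28% of all genes, and it can share the letters AAG with the first motif. TATAAA was in 6 genes (13.6%), against 15.7% of all genes. In the windows shown, the genes lower in Ctr9 arrays have runs of 3 bases (Rps19bp1), 7 (Rpl12), 10 (Rps6) and 14 (Rpl14). The run of 21 in Rpl7a, the longest of the 44 genes, belongs to a gene with no call. Other bright genes with no call had shorter runs, of 10 bases in Rplp2, 7 in Rplp0 and 5 in Rpl37a (the last 2 windows are not shown). Counted from 1 at the RefSeq start, the runs of Rpl12 and Rpl22l1 begin at base 2.

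Most ribosomal protein transcripts showed no difference past the test between Ctr9 and luciferase arrays. Of the 50 genes, 1 rose, 5 fell and 44 did not pass (limma, Benjamini-Hochberg adjusted p under 0.05), which is 12% called, against 30.8% of all 18193 genes (15.8% higher and 15% lower). The median log2 difference was -0.033, against 0.004 over all genes. Differences ran from -0.49 for Rpl12 to 0.21 for Rpl27a, with 16 above 0 and 34 below. At an unadjusted p under 0.05, limma counted 7 of the 50, against 7529 of all 18193 genes. The low share was not found in the 13 genes not above the 99th percentile of probe set means. Of these, 4 passed (30.8%), against 30.8% of all genes under that setting. On plain probe sets, whose IDs do not end in x_at, s_at or a_at, 9 of 27 passed (33.3%), against 29.3% of all genes. That set mixes signal levels. It holds bright readings such as Rpl19 and Rpsa, and its calls of Rpl35, Rps20, Rps24 and Rps9 came from dimmer probe sets of those genes. Without the paralogs and Rps19bp1, 0 of the 43 genes rose and 3 fell. In RNA from a whole culture, fewer cells of a type and less RNA per cell cannot be told apart.

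By subunit, the 26 large subunit genes held 1 rise and 2 falls, with a median log2 difference of -0.004. The 24 small subunit genes held 0 rises and 3 falls, with a median of -0.043, and 19 of the 24 had a negative difference. Those falls were Rps6, the paralog Rps4l and Rps19bp1, which is not a ribosomal protein gene. Over all 18193 genes, 15.8% were called higher and 15% lower, and 8947 had a negative difference. The difference between the subunits was not tested.

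**Figure D1:**
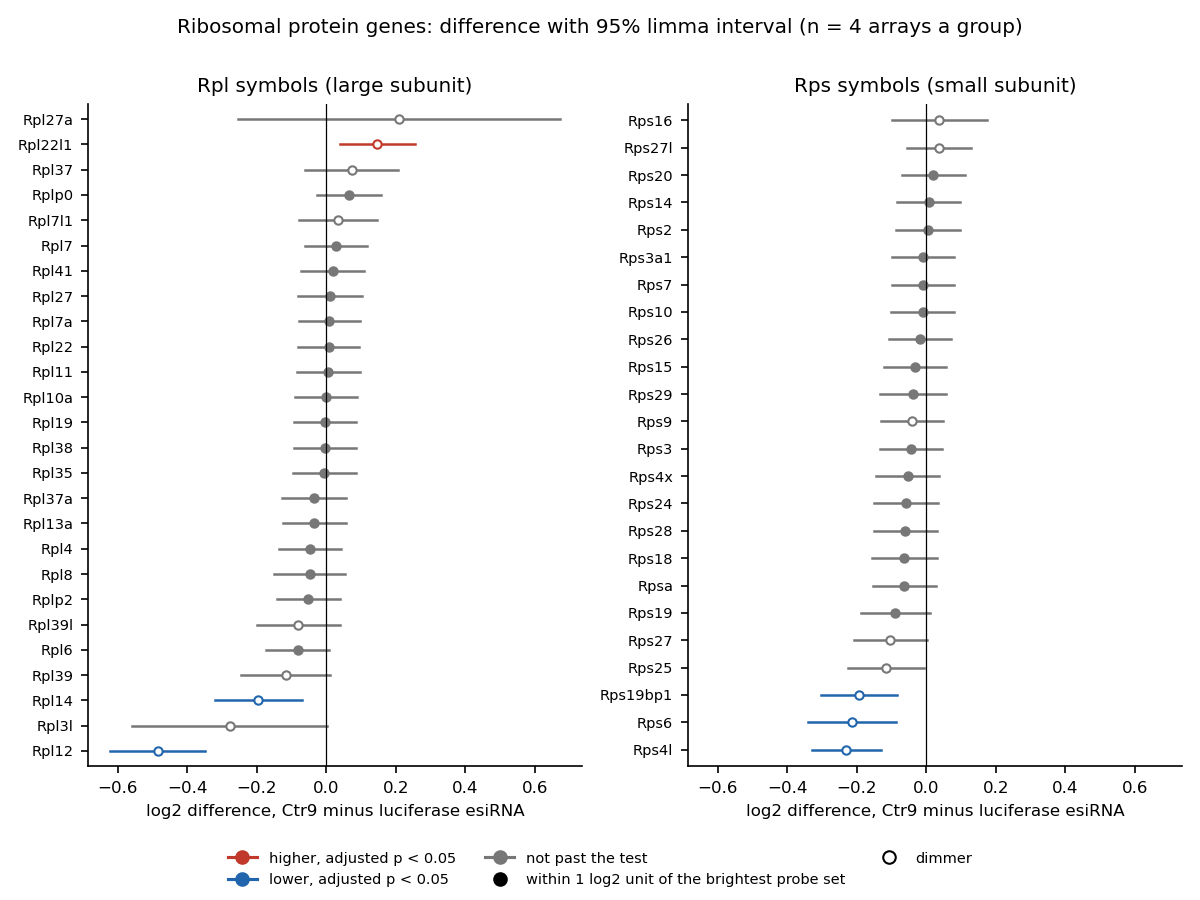
Log2 difference, Ctr9 minus luciferase esiRNA, of each of the 50 genes with its 95% limma interval (n = 4 arrays a group), large subunit symbols on the left and small subunit symbols on the right. Filled points are probe sets within 1 log2 unit of the brightest probe set. The 5 blue genes (Rpl12, Rpl14, Rps19bp1, Rps6 and Rps4l) fell and the red gene, Rpl22l1, rose, a call lost under quantile normalization and cyclic loess. All 6 are open points.

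Rpl12 fell most. It encodes a large subunit protein at the base of the stalk, the flexible arm that recruits translation factors. Its log2 signal was 8.78, 9.02, 9.03 and 8.96 in the Ctr9 arrays, against 9.4, 9.46, 9.43 and 9.43 in the luciferase arrays. Every Ctr9 array lay below every luciferase array. The means were 8.95 ± 0.118 in Ctr9 and 9.43 ± 0.0242 in luciferase arrays (SD, n = 4 each). The log2 difference was -0.49 (SE 0.0610, limma adjusted p = 0.000253), so the linear signal fell by 28.6%. Rpl12 passed under each of the 23 alternatives that gave it a value. It has 1 probe set with 1 symbol, so the alternatives that choose among or average a gene's probe sets could not change its reading.

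The other stalk proteins that were measured did not pass. Rplp0, which anchors the stalk to the ribosome, had 14.29, 14.26, 14.28 and 14.29 in Ctr9 arrays, against 14.22, 14.22, 14.24 and 14.17 in luciferase arrays. The groups did not overlap, but the log2 difference was 0.07 (SE 0.0414, limma adjusted p = 0.301). Rplp2, a protein of the stalk's tip and the brightest gene of the group, had 14.64, 14.64, 14.64 and 14.61 in Ctr9 arrays, against 14.68, 14.65, 14.7 and 14.71 in luciferase arrays. Its log2 difference was -0.05 (SE 0.0408, limma adjusted p = 0.419). Rpl12 was read at a mean log2 signal of 9.19 over the arrays, against 14.25 for Rplp0 and 14.66 for Rplp2. Rplp0 and Rplp2 thus lay within 1 log2 unit of the brightest probe set, where 0 of 33 genes of the group passed. Whether Rpl12 responds differently from the other stalk genes was not tested, and their signal levels are too far apart to compare the calls. Rpl11, which with Rpl5 and the 5S rRNA can bind Mdm2, differed by 0.01 on the log2 scale (SE 0.0403, limma adjusted p = 0.935).

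Rps6 is the small subunit protein that S6 kinases phosphorylate downstream of mTOR. It had 9.01, 9.06, 9.15 and 9.18 in Ctr9 arrays, against 9.3, 9.41, 9.25 and 9.29 in luciferase arrays, with no overlap. The log2 difference was -0.21 (SE 0.0570, limma adjusted p = 0.0205). A second, dim Rps6 probe set, at a mean of 3.69 over the 8 arrays, differed by -0.03 and did not pass. Rps6 lost its call without Ctr9 array 1, without Ctr9 array 2 and without luciferase array 2, where the difference was -0.18, -0.20 and -0.18.

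Rpl14 encodes a large subunit protein. It had 10.08, 10, 10.18 and 10.08 in Ctr9 arrays, against 10.28, 10.38, 10.27 and 10.2 in luciferase arrays. The highest Ctr9 array lay just below the lowest luciferase array, without overlap. The log2 difference was -0.20 (SE 0.0561, limma adjusted p = 0.0279). The call held without Ctr9 array 3 and without luciferase array 4, and was lost without any of the other 6 arrays, with differences from -0.20 to -0.16.

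Rps19bp1 had 10.04, 9.99, 10.11 and 10.07 in Ctr9 arrays, against 10.19, 10.21, 10.28 and 10.31 in luciferase arrays. Every Ctr9 array was below every luciferase array, and the log2 difference was -0.19 (SE 0.0487, limma adjusted p = 0.0151). The call was lost without luciferase arrays 3 and 4, where the difference was -0.15. Rps19 itself, which is mutated in many cases of human Diamond-Blackfan anaemia, had 13.91, 14, 14.01 and 14.02 in Ctr9 arrays, against 14.07, 14.09, 14.07 and 14.06 in luciferase arrays. Its log2 difference was -0.09 (SE 0.0441, limma adjusted p = 0.186). Of the 19 genes listed for that anaemia in humans, 11 were measured. None passed in either direction, against 30.8% of all genes by limma's adjusted p. By an unadjusted p under 0.05, limma counted 0 of them, against 7529 of all 18193 genes. Their median difference was -0.018. With a prior that follows the signal level, given below, Rps19, Rps24 and Rps28 of this list passed, each lower in Ctr9 arrays. Of the 11, 10 were read within 1 log2 unit of the brightest probe set. A dimmer probe set of Rps24 and a dimmer one of Rpl35, both from the same list, fell.

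**Figure D2:**
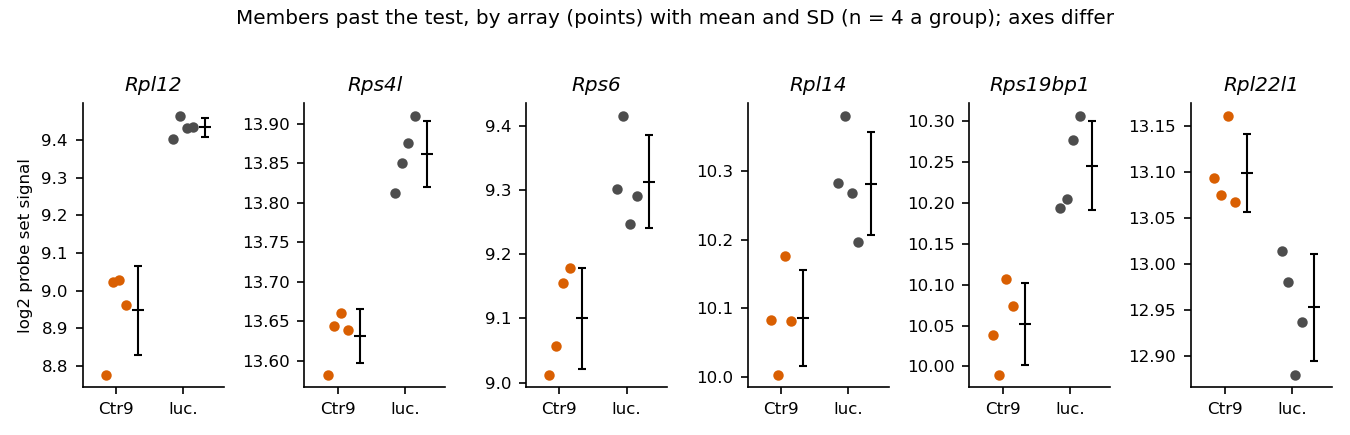
Log2 signal of the 6 genes past the test, 1 point per array with the group mean and SD beside it (n = 4), Ctr9 arrays in orange left of luciferase arrays in grey. Vertical axes differ between genes. In each panel the groups do not overlap. Rpl12, Rps4l, Rps6, Rpl14 and Rps19bp1 are lower in Ctr9 arrays, and Rpl22l1 is higher, a call lost under quantile normalization and cyclic loess.

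Several paralogs are close copies that can take the place of the standard protein in some tissues, so they are given beside their partners. Rps4l, an S4 paralog, had 13.58, 13.64, 13.66 and 13.64 in Ctr9 arrays, against 13.81, 13.85, 13.88 and 13.91 in luciferase arrays. All 4 Ctr9 arrays were lower, the log2 difference was -0.23 (SE 0.0445, limma adjusted p = 0.0036), and the linear signal fell by 14.7%. Rps4x, the X-linked S4 gene, was brighter and differed by -0.05 (SE 0.0410, limma adjusted p = 0.406). The difference between the S4 genes was not tested.

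Rpl22l1, the paralog of Rpl22, was the gene that rose. It had 13.09, 13.08, 13.16 and 13.07 in Ctr9 arrays, against 13.01, 12.98, 12.88 and 12.94 in luciferase arrays, with no overlap. The log2 difference was 0.15 (SE 0.0482, limma adjusted p = 0.0499), and the call was lost under quantile normalization and cyclic loess and without any array but luciferase array 1 (differences from 0.12 to 0.16). Rpl22, an RNA-binding large subunit protein, read 14.32 in the mean of both groups on its brightest probe set, a difference of 0.01 (SE 0.0399, limma adjusted p = 0.932).

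The other pairs did not pass. Rpl39l, a paralog used in male germ cells, differed by -0.08 (limma adjusted p = 0.333), and Rpl39 by -0.12 (limma adjusted p = 0.183). Rps27l, a p53 target, differed by 0.04 (limma adjusted p = 0.583), and Rps27 by -0.10 (limma adjusted p = 0.149). Rpl7l1 and Rpl7 each differed by 0.03 on their brightest probe sets (limma adjusted p = 0.702 for Rpl7l1 and 0.667 for Rpl7). The dimmer Rpl7l1 probe sets had the opposite sign, at -0.10 and -0.13, and did not pass (limma adjusted p = 0.152 and 0.149). Rpl3l, a paralog of striated muscle, had 4.67, 5.2, 4.89 and 4.6 in Ctr9 arrays, against 5.29, 5.01, 4.98 and 5.2 in luciferase arrays. Its groups overlapped, its log2 difference was -0.28 (SE 0.126, limma adjusted p = 0.145), and its mean lay below 5.75, the median of all probe sets.

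The level of these probe sets bears on every call. The highest value on an array was 14.97 to 15.01 over the 8 arrays, and the brightest probe set had a mean of 14.98. Of the 50 genes, 37 lay above the 99th percentile of all probe set means (12.92) and 33 within 1 log2 unit of the brightest probe set. Of the 50 brightest genes on these arrays, 33 were ribosomal protein genes. The 4 brightest of the group were Rplp2, Rpl37a, Rpl7a and Rps29, between 14.61 and 14.66. The 4 dimmest were Rps16 at 3.62, Rpl3l at 4.98, Rps27 at 6.73 and Rpl39 at 7.65.

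Among the 33 genes nearest the top, 0 passed the test. By limma, 0 had an unadjusted p under 0.05, against 7529 of all 18193 genes. Their differences ran from -0.09 to 0.07, with 95% intervals reaching from -0.19 to 0.16, and the smallest limma adjusted p was 0.184. Their replicates were tight, with a median SD of 0.019. Among the 17 dimmer genes, 1 rose and 5 fell, a share near the 30.8% of all genes. Their median difference was -0.104 and their median SD was 0.066. The other 20 genes within 1 log2 unit of the brightest probe set held 2 rises and 1 fall, and 7 of them had an unadjusted p under 0.05. Among the other 171 genes above the 99th percentile, 27 rose and 21 fell. With the ribosomal protein genes included, 5.66% of the 53 genes nearest the top and 24% of the 208 above the 99th percentile passed. Whether a signal this near the top still follows the amount of RNA was not tested.

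**Figure D3:**
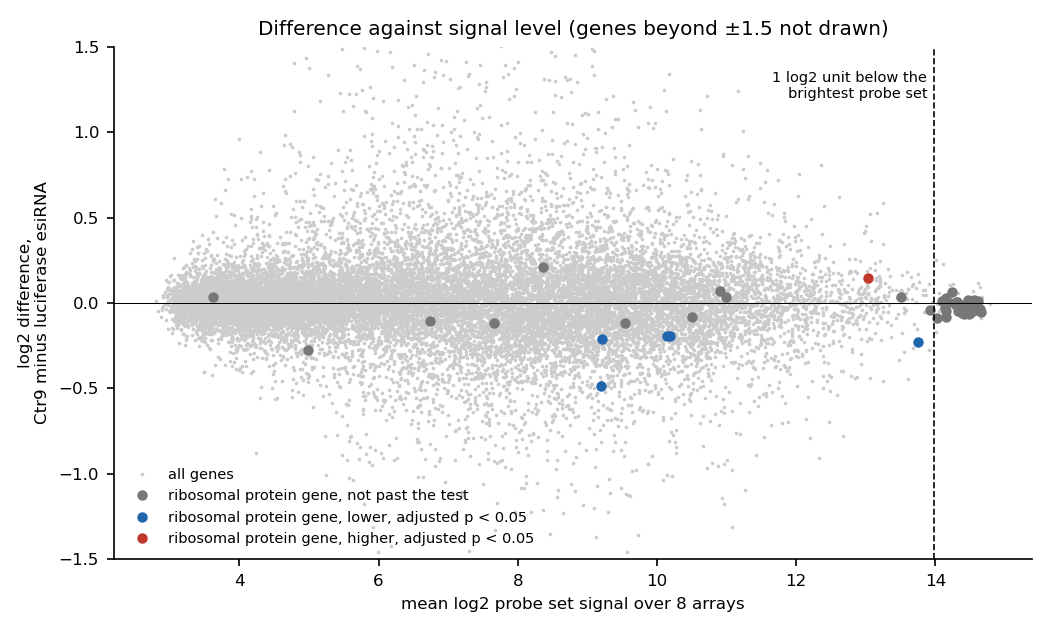
Log2 difference, Ctr9 minus luciferase esiRNA, against the mean log2 signal over the 8 arrays, 1 point per gene, with all genes in light grey. Most ribosomal protein genes lie right of the dashed line, 1 log2 unit below the brightest probe set, with differences between -0.09 and 0.07. The 5 that fell (blue) and Rpl22l1, which rose in a call lost under quantile normalization and cyclic loess (red), lie left of it.

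The spread assumed for these bright genes also set the count. limma's main setting draws every gene's variance toward 1 common value, which gave the 33 bright genes a median SE of 0.0407. A prior that follows the signal level, robust to outlying genes, gave them a median SE of 0.0184. With it, 2 genes of the 50 rose and 14 fell, which is 32%, against 36.2% of all genes. The 10 genes gained were Rpl6, Rplp0, Rplp2, Rps18, Rps19, Rps24, Rps25, Rps28, Rps4x and Rpsa, of which Rplp0 was higher and the others lower in Ctr9 arrays. Of these, Rpl6 had 14.1, 14.12, 14.12 and 14.13 in Ctr9 arrays, against 14.17, 14.2, 14.21 and 14.21 in luciferase arrays. Its log2 difference of -0.08 is small but every Ctr9 array lay below every luciferase array. Groups without overlap were found in 22 of the 50 genes (44%), against 36.6% of all genes.

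The 50 genes were covered by 106 probe sets with 1 symbol, and 24 genes had several. Of the 106 probe sets, 1 was higher, 11 were lower and 94 did not pass, against 24.9% of all probe sets called and 13.1% called lower. None of the 54 probe sets within 1 log2 unit of the brightest passed (0 by limma's adjusted p). Of the 37 not above the 99th percentile, 10 passed, all lower. No gene had probe sets called in opposite directions.

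In 5 genes a dimmer probe set fell while the brightest did not pass. Rps20, a protein of the small subunit's head, showed the largest gap. Its brightest probe set had 14.48, 14.46, 14.5 and 14.46 in Ctr9 arrays, against 14.49, 14.46, 14.44 and 14.44 in luciferase arrays, a log2 difference of 0.02 (SE 0.0411, limma adjusted p = 0.776). A dim Rps20 probe set had 6.82, 6.89, 6.98 and 6.84 in Ctr9 arrays, against 7.52, 7.57, 7.34 and 7.52 in luciferase arrays. All 4 Ctr9 arrays were lower, with a log2 difference of -0.60 (SE 0.0620, limma adjusted p = 6.8e-05). Another dim Rps20 probe set differed by -0.56 (SE 0.0864, limma adjusted p = 0.000944), and the direction therefore depends on the probe set read.

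Rps24, another Diamond-Blackfan gene in humans, had 14.36 ± 0.0258 in Ctr9 and 14.42 ± 0.0207 in luciferase arrays on its brightest probe set (SD, n = 4 each), which did not pass. A dimmer Rps24 probe set had 9.08, 9.25, 9.11 and 9.13 in Ctr9 arrays, against 9.56, 9.5, 9.47 and 9.44 in luciferase arrays. Every Ctr9 array was lower there, with a log2 difference of -0.35 (SE 0.0530, limma adjusted p = 0.000803). The dimmest Rps24 probe set, at a mean of 5.72, differed by -0.08 and did not pass (limma adjusted p = 0.475). A dimmer Rpl22 probe set had 10.13, 10.34, 10.34 and 10.29 in Ctr9 arrays, against 10.65, 10.6, 10.53 and 10.5 in luciferase arrays. The difference was -0.30 (SE 0.0616, limma adjusted p = 0.0055), with no overlap.

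The dimmest Rpl35 probe set, at a mean of 4.92 and thus below the median probe set, differed by -0.36 (SE 0.0772, limma adjusted p = 0.00698). The 5 other Rpl35 probe sets lay above 14 in the mean and differed by -0.01 to 0.03. For Rps9, the dimmest of 3 probe sets differed by -0.25 (SE 0.0793, limma adjusted p = 0.0434). Which transcripts the dimmer probe sets read was not examined here. Probe sets whose IDs end in x_at, s_at or a_at can match several transcripts. With x_at and s_at these can belong to different genes, which for a family with many processed copies leaves the source gene uncertain. Probe sets of the x_at, s_at and a_at classes read 32 of the 50 genes, with 1 rise and 0 falls. The 5 falls were among the 18 genes read by plain probe sets, against 30.8% of all genes called and 15% called lower. These 5 genes also lay more than 1 log2 unit below the brightest probe set. Whether the class or the signal level goes with the falls was not tested.

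**Figure D4:**
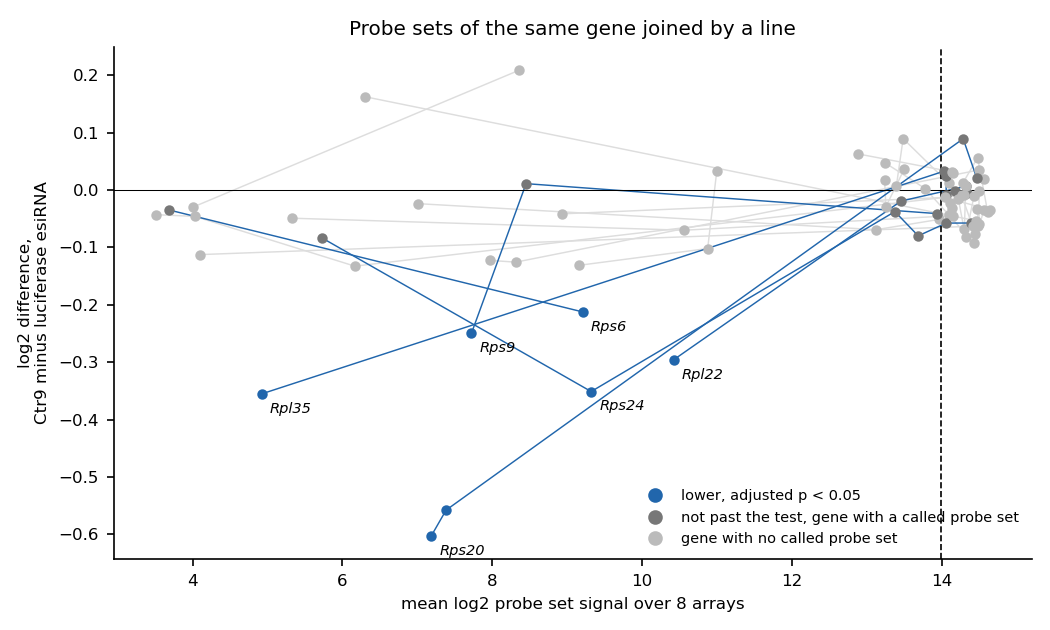
Log2 difference, Ctr9 minus luciferase esiRNA, against mean log2 signal over the 8 arrays for the probe sets of genes with several, 1 line per gene. Blue points fell at an adjusted p under 0.05, and in Rps6 the blue point is the brighter probe set. In Rps20, Rps24, Rpl22, Rpl35 and Rps9 the blue probe sets are dimmer ones, at -0.60 to -0.25, while the probe sets near or right of the dashed line (1 log2 unit below the brightest probe set) lie between -0.08 and 0.09.

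The median over the 50 genes was 14.26, 14.26, 14.28 and 14.29 in the Ctr9 arrays, against 14.24, 14.24, 14.27 and 14.21 in the luciferase arrays. The groups overlapped, and the median of each array lay close to the top of the scale. The 110 probe sets with several symbols of this family held 3 rises and 10 falls, against 24.9% of all probe sets called. Their median difference was -0.027 and their range -0.76 to 1.23, wider than that of the 50 genes. Fau, which carries a small subunit protein under a symbol outside the rule, differed by -0.04 and did not pass.

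Ctr9 itself was only slightly lower on its brighter probe sets. Its brightest probe set had 10.09, 10.13, 10.13 and 10.07 in Ctr9 arrays, against 10.12, 10.18, 10.21 and 10.26 in luciferase arrays, a log2 difference of -0.09 (limma adjusted p = 0.209, exact two-sided permutation p = 0.0857, the smallest possible being 0.0286). The next 2 probe sets fell by 0.15 and 0.18 (limma adjusted p = 0.0398 and 0.0279), and a dim one rose by 0.29 (limma adjusted p = 0.0228). The dimmest was higher by 0.27 and did not pass (limma adjusted p = 0.125). Probe sets of Ctr9 were therefore called in opposite directions. Of 8 ES cell markers, 0 rose and 4 fell, with a summed linear signal of 72942 to 74386 in Ctr9 and 82014 to 84375 in luciferase arrays. Of 8 trophectoderm markers, 6 rose, with 5083 to 5493 in Ctr9 and 2032 to 2443 in luciferase arrays. Of 9 fibroblast markers, 4 rose (676 to 703 in Ctr9, 549 to 583 in luciferase arrays). Of 8 extraembryonic endoderm markers, 2 rose (545 to 643 in Ctr9, 470 to 511 in luciferase arrays). Beside these counts stand the 15.8% higher and 15% lower of all genes. Means below the median probe set were found for 5 of the 9 fibroblast markers and 5 of the 8 endoderm markers, so their sums rest partly on dim signals. No marker was listed at 0, and the part of these cell types in the results on ribosomal protein genes was not tested.

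The genes around the ribosome were counted in the same fit, by lists drawn up with earlier results of these data known. Mitochondrial ribosomal proteins, which build the separate ribosome of that organelle, had 8 rises and 14 falls among 76 genes and a median log2 difference of -0.031. Their 28.9% called stands beside 12% of the cytosolic genes and 30.8% of all genes, and the difference was not tested. Mrpl54 rose by 0.40 and Mrpl12 by 0.29, though Mrpl54 was at -0.02 on its dimmest probe set and did not pass there. The mitochondrial genes had median levels of 10.57 in Ctr9 and 10.6 in luciferase arrays, while the medians of the cytosolic genes lay between 14.21 and 14.29 on the 8 arrays.

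Other TOP mRNAs, which share the pyrimidine start, had 1 rise and 1 fall among 18 genes and a median of 0.008. Nap1l1, a histone chaperone, rose by 0.36 (limma adjusted p = 0.000236), and Eif4a2, an RNA helicase of initiation, fell by 0.40 (limma adjusted p = 0.00152). Regulators of TOP translation had 1 rise and 2 falls among 9, with Larp1, the repressor that binds TOP mRNAs, at 0.26 (limma adjusted p = 0.00551) and Rps6kb2, an S6 kinase, at -0.20 (limma adjusted p = 0.00713). Initiation factors had 3 rises and 3 falls among 24. Called shares were 11.1% for other TOP mRNAs, 33.3% for the TOP regulators and 25% for initiation factors, against 30.8% of all genes. Eif2s2, a subunit of the factor that brings the initiator tRNA, fell by 0.22. Eif3d, which can bind the mRNA cap, fell by 0.20 on its brightest probe set but was higher, at 0.02, in the mean of its probe sets, where it did not pass.

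Assembly of the subunits takes many factors that act on pre-rRNA in the nucleolus. Small subunit assembly genes had 6 rises and 8 falls among 44 (median -0.024). Ngdn fell by 0.41 (limma adjusted p = 0.000193), and Nop58, a core protein of box C/D snoRNPs, fell by 0.30 (limma adjusted p = 0.000732). Large subunit assembly genes had 4 rises and 6 falls among 53 (median 0.009), with Urb2 lower at -0.23 and Noc2l higher at 0.24, though Noc2l was at -0.05 on its dimmest probe set and did not pass there. The 9 genes that host snoRNAs had 1 rise, Snhg3 at 0.53, and 3 falls, among them Snhg12 at -0.28. The shares called were 31.8% for small subunit assembly, 18.9% for large subunit assembly and 44.4% for snoRNA hosts, against 30.8% of all genes.

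RNA polymerase I, which transcribes the large rRNA precursor, had 3 rises and 3 falls among 15 genes. Polr1d, a subunit shared with polymerase III, rose by 0.48 (limma adjusted p = 1.8e-05), and Taf1d, a subunit of the initiation factor SL1, rose by 0.50 (limma adjusted p = 0.000155). On its dimmest probe set Polr1d was at -0.09 and did not pass. Taf1d turns to -0.13 on its brightest probe set outside the x_at, s_at and a_at classes, and did not pass there. RNA polymerase III, which makes the 5S rRNA, had 4 rises and 2 falls among 21. Shares of 40% for polymerase I and 28.6% for polymerase III were called, against 30.8% of all genes. Polr3gl, an alternative subunit of that polymerase, fell by 0.95 (limma adjusted p = 1.0e-05) and Polr3k rose by 0.52 (limma adjusted p = 3.0e-05). On its dimmest probe set Polr3k was at -0.01 and did not pass.

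Escorts and importers of ribosomal proteins had 2 rises and 2 falls among 12. Kpnb1, the nuclear import receptor importin beta, rose by 0.62 (limma adjusted p = 3.3e-05), but differed by -0.02 on its brightest plain probe set. Pdcd2l, a relative of the Rps2 escort Pdcd2, fell by 0.34 (limma adjusted p = 0.00057). Among 7 genes by which free ribosomal proteins signal to p53, 0 rose and 3 fell, with Mdm4 at -0.71 (limma adjusted p = 2.6e-05) and Mdm2 at -0.41 (limma adjusted p = 0.00042). Mdm2 is the ligase of p53 and Mdm4 its partner. On their dimmest probe sets Mdm4 (-0.08) and Mdm2 (-0.07, also its plain one) did not pass. Factors known at ribosomal protein promoters had 3 rises and 3 falls among 12. Against 30.8% of all genes, 33.3% of the escorts, 42.9% of the p53 list and 50% of the promoter factors were called. Tbpl1, a TBP relative, rose by 0.38 (limma adjusted p = 0.000188) and Gabpa, the DNA-binding subunit of GABP, fell by 0.31 (limma adjusted p = 0.000493). On their dimmest probe sets Tbpl1 (0.05, also its plain one) and Gabpa (-0.10) did not pass.

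**Figure D5:**
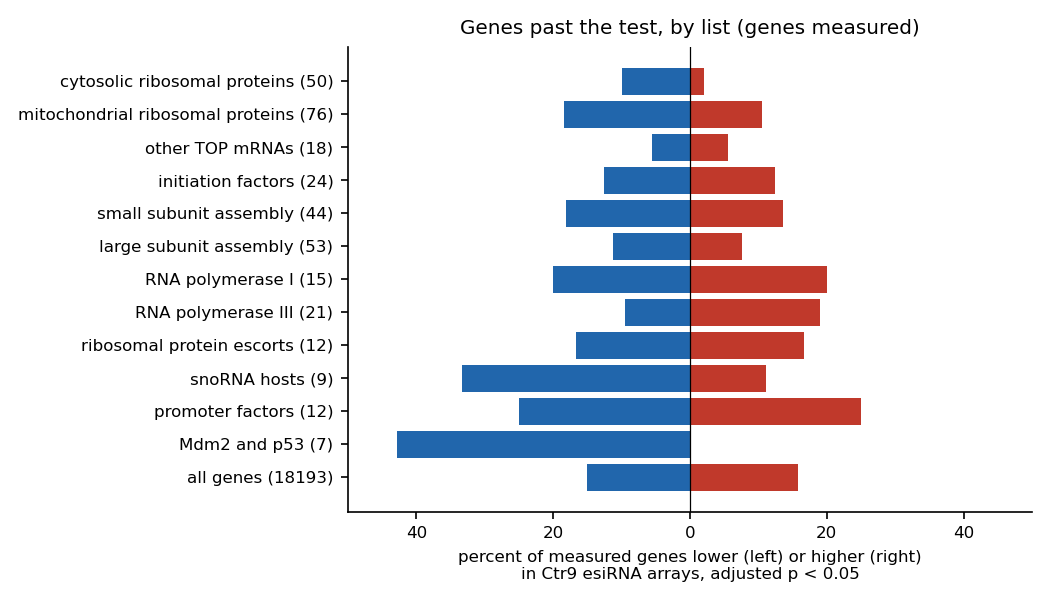
Percent of measured genes past the test (limma adjusted p under 0.05) that were lower (left, blue) or higher (right, red) in Ctr9 than in luciferase arrays, by list, with the number of genes measured in brackets. Cytosolic ribosomal protein genes had 1 rise, lost under quantile normalization and cyclic loess, and 5 falls among 50, and all genes had 15.8% higher and 15% lower. Lists of few genes have coarse percentages.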

How the data were processed

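The authors deposited log2 probe set signals of 8 arrays. GCOS 1.4 and RMA are named in the submitters' processing notes, with settings not given in the sources used here. Since RMA removes background and gives all arrays 1 distribution, differences of dim probe sets shrink, and a shift common to every gene would be lost. Values were used as deposited.

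All 45037 probe sets other than 64 manufacturer controls were fitted with limma (version 3.58.1, R version 4.3.3, lmFit then eBayes, untrended, no covariates). Adjustment was by Benjamini-Hochberg over all of them, with 0.05 as the threshold, and SE denotes the moderated standard error. Symbols were updated through Entrez IDs with the RefSeq table of GRCm38.p6. A gene's value is that of its brightest 1-symbol probe set, by mean over the 8 arrays. Rpl8 has 1 empty luciferase value, and the fit used the other 7.

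Members and lists were chosen with earlier results of these data known. Named are the paralogs and partners, stalk and 5S proteins, members past the test without overlap (up to 12 each way), the 4 brightest and 4 dimmest, up to 4 genes with the smallest adjusted p per list (at most 2 are printed), and Ctr9. Outside that rule, and chosen after their values were seen, are Rps19, Rpl6, Rpl27a, Rps20, Rps24, Rps25, Rps26, Rpl35, Rps9 and other genes gained with the trended prior. Promoter letters are RefSeq's and 6 genes had no entry.

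Replicate numbers did not pair the samples (correlations of same-numbered deviations from -0.0776 to 0.0625). Alternatives were other scalings, a signal filter, array weights, a robust prior with trend, the replicate block, other probe set choices, stricter thresholds and leaving out arrays. Pairs of luciferase arrays left out and probe sets with all 8 values were chosen after seeing the data. The script was tested on simulated data. Figures were drawn with matplotlib 3.10.9.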

Additional observations from a re-analysis of the deposited data

Results flagged for a closer look

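In 3 of 100 groups of 4 arrays (50 genes, 2 groups each), 1 array lay far from the other 3 by Dixon's criterion, which flags about 1 in 20 groups by chance. Rpl27a, a large subunit protein, was at 9.13 in Ctr9 array 1, against 8.19 to 8.35 in the other Ctr9 arrays. Rps25, a small subunit protein, was at 9.51 in luciferase array 4, against 9.63 to 9.65 in the other luciferase arrays. Rps26, a small subunit protein, was at 14.39 in luciferase array 4, against 14.37 in the other luciferase arrays.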

How the results depend on the processing

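The count of rises was 1 in the main setting. It was 0 with quantile normalization, cyclic loess, the replicate block, genes above the 99th percentile left out, plain probe sets (IDs not ending in x_at, s_at or a_at), an adjusted p under 0.01, a change of at least 1.2-fold, luciferase arrays 1 and 2 or 3 and 4 left out, or only probe sets with all 8 values, and 2 with the trended robust prior. The count of falls, 5 in the main setting, was 14 with the trended prior, 9 of 27 with plain probe sets, 8 with the dimmest probe set of each gene, 3 with the replicate block, 3 without luciferase arrays 1 and 2, 4 without arrays 3 and 4, 2 at an adjusted p under 0.01 and 1 at 1.2-fold. Leaving out 1 array gave 0 to 1 rises, 3 to 5 falls and a median of -0.035 to -0.021. The lowest count, 3 falls, came without Ctr9 array 1 and without luciferase array 2. Without luciferase arrays 1 and 2 the calls of Rpl14, Rps6 and Rpl22l1 were lost, as were those of Larp1, Rps6kb2 and Snhg12. Without arrays 3 and 4 those of Rpl22l1, Rps19bp1 and Eif3d were lost. The median, -0.033, was -0.115 for the genes not above the 99th percentile and for plain probe sets. Calls over all genes fell to 3660 at an adjusted p under 0.01 and 3510 at 1.2-fold, against 5600. The replicate block, which rests on numbers that do not pair the samples, ended the calls of Rpl14, Rps6 and Rpl22l1.

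Signs turned with the probe set read. Averaged over each gene's probe sets, Eif3d was 0.016 and Rps20 -0.263. On plain probe sets Rps20 was -0.603, Kpnb1 -0.015 and Taf1d -0.133. On the dimmest probe set Rps20 was -0.603, Rpl22 -0.296, Taf1d -0.341, Eif3d 0.235, Mrpl54 -0.019, Noc2l -0.053, Polr1d -0.091 and Polr3k -0.008. The cause was not tested. For the 33 genes within 1 log2 unit of the top, the 95% intervals reach from -0.19 to 0.16, and the response of signals this bright was not tested.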
